A study of Homo sapiens with 2 samples.

Results

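Cajal-Retzius-like neurons were taken from human cerebral organoids as the barcodes with the highest share of 7 marker transcripts, RELN, TP73, LHX1, LHX5, EBF2, EBF3 and NDNF. A barcode was counted as 1 cell or 1 nucleus, although some may hold RNA of more than 1. Barcodes were kept with more than 2000 transcripts in the nuclei library or more than 5000 in the cells library and at most 20% mitochondrial transcripts, which left 11375 nuclei and 6779 cells. A kept barcode was eligible when RELN and at least 3 of the 7 markers were detected, and the 150 barcodes with the highest summed share of the 7 in each library were the members. The 300 members were drawn from 18154 kept barcodes, out of 192 eligible nuclei and 355 eligible cells. All other kept barcodes of the same library were the reference.

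All organoids came from the H9 human embryonic stem cell line, so a single genotype was sampled and no donor was compared. The cells library pooled control organoids (CO) of days 45, 55 and 70, organoids dissociated to single cells at day 45, reaggregated and collected at days 48, 55 and 70 (DISS), and organoids freed of Matrigel at day 13, set in 3% agarose and collected at day 55 (CONS). The nuclei library held nuclei of CO at day 45 by the study's methods, from whole organoids and from a cell suspension, although its label also names dissociated and embedded material. No barcode could be assigned to a condition, day or organoid here, so each library was 1 sample, conditions were not compared and no p-values are given.

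Cajal-Retzius neurons are among the first neurons born in the cortex. They arise at the borders of the pallium, such as the cortical hem, migrate below the pial surface and secrete reelin, which binds receptors on migrating neurons and acts through the adaptor DAB1 to order the cortical layers. Those from the hem carry the transcription factor p73 and use glutamate as transmitter.

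The libraries held 197446 nuclei barcodes with 82339738 transcripts and 1303455 cell barcodes with 254967545 transcripts. Member nuclei had a median of 5183.5 transcripts against 4654 in the reference, and their range ran from 2035 to 46507. Member cells had a median of 15895 transcripts against 10695, and the deepest held 287936, so the pooled levels of the cells lean on very deep barcodes. Eligible barcodes beyond rank 150 were deeper still, with medians of 30218 in nuclei and 66630 in cells. No doublet caller was run, and the part of barcodes that hold RNA of more than 1 cell was not tested. The 2 libraries shared 19 kept barcode names, none of them among the members.

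The score, the summed counts of the 7 markers per 10000 transcripts, fell steeply among the members. In nuclei it was 285 at rank 1, 70.7 at rank 50, 26.0 at rank 100 and 6.95 at rank 150, with 6.70 in the first nucleus left out. In cells it was 254 at rank 1, 16.9 at rank 50, 5.83 at rank 100 and 3.27 at rank 150, with 3.25 in the first cell left out. No gap separated the last members from the first barcodes left out in either library. Exactly 3 markers were detected in 79 of the 150 nuclei and 89 of the 150 cells, while all 7 were detected in 1 nucleus and 3 cells.

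**Figure D1:**
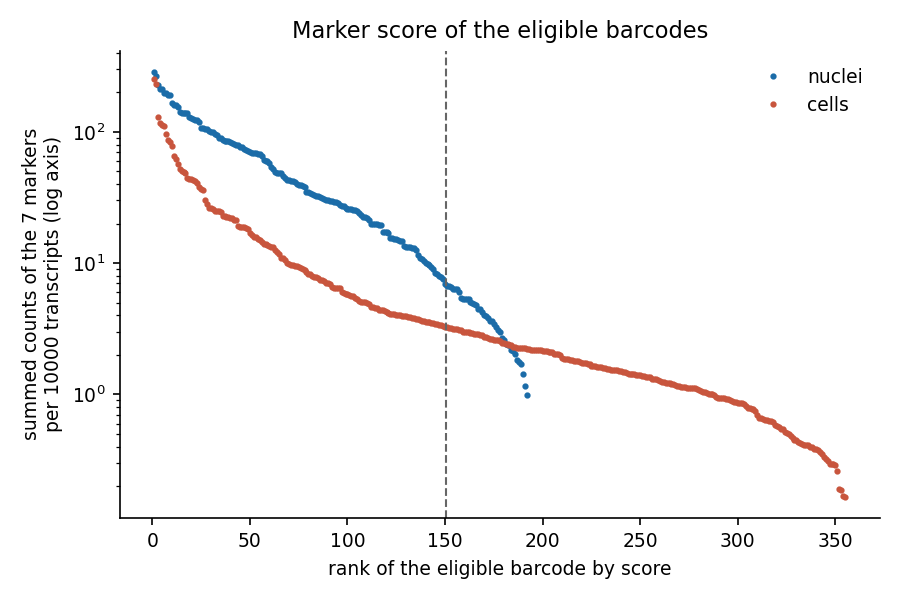
Summed counts of the 7 markers per 10000 transcripts (y axis, log scale) for each eligible barcode against its rank (x axis), nuclei in blue and cells in red. The dashed line marks rank 150, where the score passes from 6.95 to 6.70 in nuclei and from 3.27 to 3.25 in cells without a step, and cells lie below nuclei through the members.

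The 7 markers chose the members, so their levels are given as a description only. RELN, which encodes the secreted glycoprotein reelin, reached 34.0 counts per 10000 in member nuclei against 0.414 in the reference, and 8.25 against 0.252 in cells. Per barcode it ranged from 0.215 to 276 counts per 10000 in member nuclei, with a median of 16.0, and from 0.130 to 240 in member cells, with a median of 2.01. A single RELN count was all that 25 member nuclei and 50 member cells held, whereas 94 nuclei and 72 cells held 5 or more. In the reference 110 nuclei and 97 cells held 5 or more, so more such barcodes lay outside the members than among them. The highest reference levels were 138 counts per 10000 in nuclei and 100 in cells. The members carried 57.5% of all RELN counts of the kept nuclei and 56.2% of those of the kept cells, so a large rest lay outside them: RELN was detected in 6.33% of the reference nuclei and 20.6% of the reference cells.

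Among the transcription factors of the rule, TP73, a p53 family member, stood at 0.873 counts per 10000 in member nuclei against 0.0383, and at 0.457 against 0.0566 in cells. The LIM-homeodomain genes had low levels with few counts behind them. LHX1 held 75 counts in member nuclei and 109 in member cells, and LHX5 held 49 and 52. EBF3, of the early B-cell factor family, was at 7.10 against 0.351 in nuclei and at 1.98 against 0.137 in cells. Its relative EBF2 was more widespread, at 5.77 against 1.11 in nuclei and 2.97 against 0.558 in cells. NDNF, which encodes a secreted neuron-derived protein, showed the smallest separation, at 0.464 against 0.125 in nuclei and 0.199 against 0.0808 in cells.

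TP73 and NDNF were not confined to the members. In 150 choroid plexus-like barcodes per library, chosen by the share of TTR, CLIC6, FOLR1, AQP1, KL, PRLR and HTR2C, TP73 reached 0.502 counts per 10000 in nuclei and 0.366 in cells. NDNF there was 0.832 in nuclei and 0.510 in cells, above its level in the members. RELN in the same barcodes was 0.0550 and 0.0870, and LHX5 had 0 counts in both libraries. Barcodes of 10 to 100 transcripts, used in place of a measure of free RNA, held RELN at 0.961 counts per 10000 in nuclei and 0.686 in cells. Both values lay above the level of the reference and below that of the members. Whether these barcodes held free RNA or shallow cells and nuclei was not tested.

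Sequence around the transcription starts is given for RELN, as the gene that defines the members, and for TP73 and EBF1, a rule marker and a gene outside the rule that was higher in the members, because both carry the letters TAATTA, the core that LIM-homeodomain proteins such as LHX1 and LHX5 bind. The windows run from 250 bases before to 50 bases after a start (RefSeq, GRCh38.p14), 5′ to 3′ on the strand of the gene, with TAATTA in capitals. RELN lies at chr7:103989609-103989908 on the minus strand, 1 of the 2 inner TP73 starts at chr1:3690422-3690721 on the plus strand and EBF1 at chr5:159097907-159098206 on the minus strand.
RELN: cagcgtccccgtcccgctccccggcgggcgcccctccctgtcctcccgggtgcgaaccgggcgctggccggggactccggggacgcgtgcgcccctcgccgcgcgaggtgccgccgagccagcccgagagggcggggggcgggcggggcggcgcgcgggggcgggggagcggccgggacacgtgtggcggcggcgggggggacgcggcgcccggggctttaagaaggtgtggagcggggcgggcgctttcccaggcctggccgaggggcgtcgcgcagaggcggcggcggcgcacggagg
TP73: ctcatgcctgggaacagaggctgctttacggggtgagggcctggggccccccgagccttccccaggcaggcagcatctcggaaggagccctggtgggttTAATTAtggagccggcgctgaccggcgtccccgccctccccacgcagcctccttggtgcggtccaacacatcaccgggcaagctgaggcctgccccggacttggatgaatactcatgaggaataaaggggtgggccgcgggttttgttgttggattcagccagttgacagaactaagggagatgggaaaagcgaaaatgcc
EBF1: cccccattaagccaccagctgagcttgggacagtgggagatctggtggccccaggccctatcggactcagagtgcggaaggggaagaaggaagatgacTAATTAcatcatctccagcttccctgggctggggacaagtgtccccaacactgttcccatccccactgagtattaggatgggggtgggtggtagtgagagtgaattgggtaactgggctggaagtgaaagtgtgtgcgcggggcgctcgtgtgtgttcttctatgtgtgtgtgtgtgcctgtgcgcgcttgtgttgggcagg

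The motif begins 151 bases before that inner TP73 start and 152 bases before the RefSeq start of EBF1, which lies inside the gene as the GENCODE annotation bounds it, with an end at position 159099916 of the chromosome. TAATTA, which reads the same on both strands, occurred in 4.84% of 35116 windows of this length. Of 22 rule and listed genes searched, 15 matched with 23 windows, and 3 windows held it, in TP73, TBR1 and EBF1. TP73 had 3 windows, and those of its first start and of its other inner start did not hold it. LHX1, LHX5, EBF2 and NDNF had no entry. The RELN window did not hold it, and 83.3% of its bases were G or C against a median of 58.7% over all windows. A match is a description of the letters only.

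Genes linked to Cajal-Retzius neurons that the rule did not use were next compared with the reference, as a list of 15. The list was chosen with earlier results of these data known, so its values are a description and no independent check of the members. In nuclei 7 of the 15 were at least 2-fold higher in the members, 5 of them among the 11 that passed the filter on low levels, which asked for at least 5 counts predicted in the members. Over all 13089 genes that passed in nuclei, 3.59% (470) were at least 2-fold higher. In cells 7 of the 15 were at least 2-fold higher, 6 of them among the 14 that passed, against 2.18% (477) of 21897 genes. None of the 15 was 2-fold lower among those that passed. The median log2 ratio of those that passed was 0.93 in nuclei and 0.70 in cells, beside -0.07 and 0.02 over all genes.

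EBF1, the third early B-cell factor gene, stood at 6.70 counts per 10000 in member nuclei against 0.900, a ratio of 7.45 (95% interval 6.89 to 8.04), and at 1.40 against 0.307 in cells, a ratio of 4.55 (4.19 to 4.94). Intervals throughout are exact and cover counting error only. SLC17A6, the vesicular glutamate transporter of many subcortical and Cajal-Retzius neurons, was at 0.818 against 0.158 in nuclei and 0.311 against 0.0837 in cells, with ratios of 5.19 (4.14 to 6.44) and 3.72 (3.12 to 4.41). Both genes were higher in the members of both nuclei sub-libraries and of all 8 cell sub-libraries. The same barcodes gave the pooled ratios, so this is a description and adds no support. EBF1 spanned 0.759 to 2.54 in members of the cell sub-libraries and 0.260 to 0.366 in the reference. SLC17A6 spanned 0.106 to 0.556 against 0.0660 to 0.103. A cell sub-library held as few as 5 members, and the share of all genes that part in this way was not computed.

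Among the other factors, NR2F2, a nuclear receptor of caudal and hem territories, had ratios of 4.74 (3.57 to 6.19) in nuclei and 2.56 (2.25 to 2.90) in cells. NHLH2, a neuronal basic helix-loop-helix factor, had ratios of 6.19 (3.75 to 9.72) from 21 counts in member nuclei and 3.87 (3.04 to 4.86) from 86 counts in member cells. BARHL2, a homeobox gene, rested on 6 counts in each library, with ratios of 13.5 (4.56 to 33.4) and 3.84 (1.33 to 9.11).

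Several genes of the list had unlike ratios in the nuclei and the cells, though the intervals of LHX9, ZIC1 and CXCR4 overlapped between the libraries. CALB2, which encodes calretinin, was at a ratio of 2.71 (2.16 to 3.38) in cells and 1.16 (0.746 to 1.72) in nuclei. LHX9 was at 3.36 (2.81 to 3.98) in cells and 1.75 (0.974 to 2.92) in nuclei. ZIC1, a zinc finger factor of the dorsal midline, had 2.46 (1.61 to 3.61) in nuclei and 1.75 (1.44 to 2.13) in cells, and PCP4, a calmodulin-binding protein, 2.07 (1.49 to 2.79) and 1.05 (0.876 to 1.24). ZIC1 and PCP4 in nuclei did not keep their direction when the members were drawn otherwise, at log2 ratios of -0.44 for ZIC1 with the 75 highest scores and -0.30 for PCP4 above 5000 transcripts. TBR1, a T-box factor of early cortical neurons, was at 1.87 (1.5 to 2.30) in nuclei and 1.01 (0.881 to 1.15) in cells. CXCR4, the chemokine receptor used in tangential migration, was at 0.827 (0.0992 to 3.04) from 2 counts in nuclei and 1.31 (0.870 to 1.90) from 29 in cells.

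Per barcode, a median of 2 of the 15 genes was detected in member nuclei and of 0 in reference nuclei, and at least 3 in 43.3% against 7.62%. In cells the medians were 4 and 1, with at least 3 in 72.7% against 29.0%, at a greater depth of the members. None of the 15 was detected in 17 nuclei and 2 cells that the rule chose.

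To see how far down the ranking the profile held, the members were divided by rank into the first, middle and last 50, a division made after the data were seen. The summed level of the 15 genes was 3.86, 4.99 and 3.66 times the reference in the nuclei of the 3 rank groups and 1.32 times in eligible nuclei beyond rank 150. In cells it was 3.40, 2.06 and 1.39 times and then 0.936 times. EBF1 gave 98 of 284, 275 of 397 and 364 of 511 counts of the list in the 3 groups of nuclei. Without EBF1, left out after the data were seen, the other 14 genes were at 3.82, 2.31 and 1.59 times the reference in nuclei and at 2.45, 1.64 and 1.30 times in cells, so they fell from group to group in both libraries.

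Lists of other cell types differed in how they varied with rank. The 9 radial glia genes together were at 0.111 of the reference in the first 50 nuclei and at 0.507 in the last 50, and the 8 choroid plexus genes at 0.0574 and 0.477. In cells the radial glia genes were at 0.509 and 0.887 in the same groups, and the choroid plexus genes at 0.440 and 1.68. In the first 50 of both libraries the lists of inhibitory neurons, projection neurons, radial glia, dividing cells and choroid plexus were all below the reference. The list of inhibitory neurons was at 0.179, 1.57 and 0.769 times the reference in the 3 groups of nuclei, and the cortical hem list at 1.73, 1.19 and 1.07 times. In cells the same lists were at 0.797, 1.30 and 1.07 times and at 1.94, 1.21 and 1.67 times. The nuclei also weakened down the ranks: LHX1-DT was detected in 43 of the first 50 and 11 of the last 50. TP73, which the score includes, was detected in 35 and 6 of them. The pan-neuronal list of the last 50 nuclei was still at 1.52 times the reference. The middle and last 50 cells went against the name in part. In the middle 50 the dividing cell list was at 1.09 times the reference, the radial glia list at 0.953 and SOX2, a factor of progenitors, at 1.21. After thinning, MKI67 or TOP2A was detected in 46% of those cells and in 38.7% of all member cells, against 39.6% of the reference and 11.3% of projection neuron-like cells. In the last 50 cells the pan-neuronal list was at 1.02 times the reference and the choroid plexus list above it, although SVEP1 was still at a ratio of 3.46 and EBF1 at 2.0. The part of RNA from other cells in those barcodes was not tested.

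**Figure D2:**
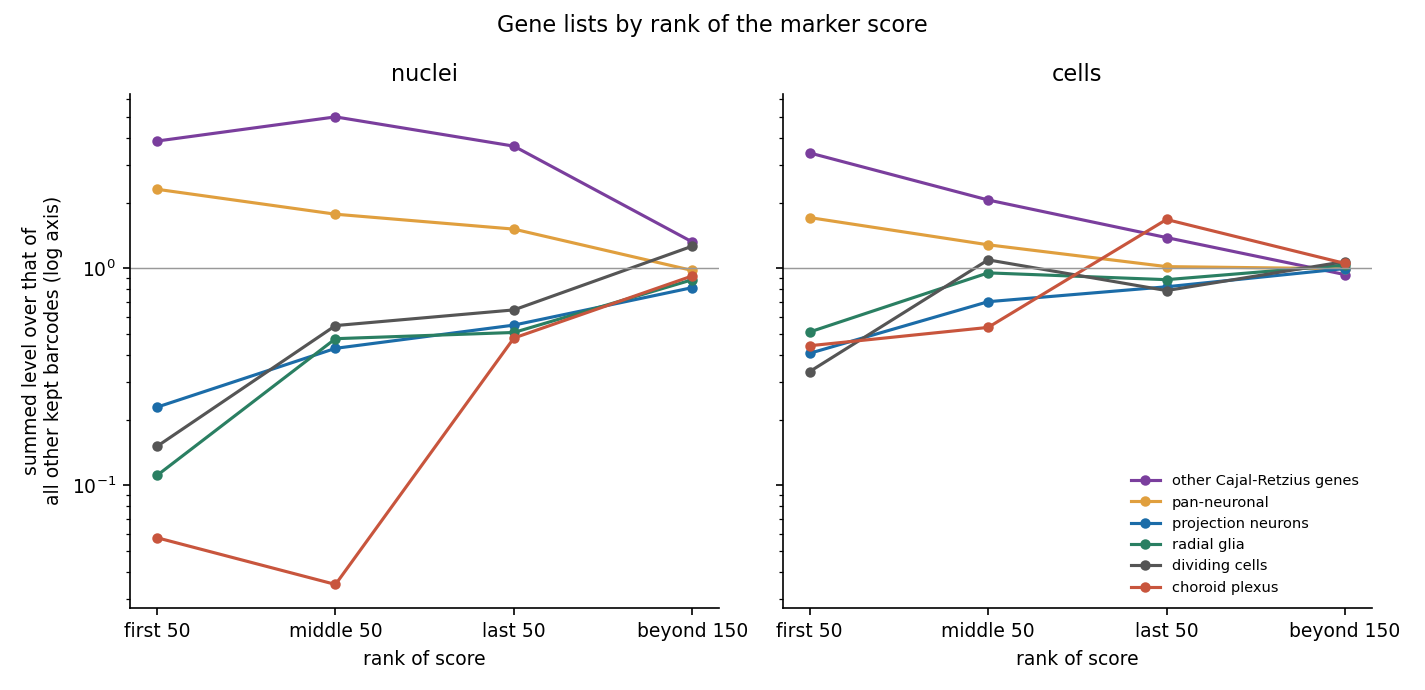
Summed level of 6 gene lists relative to all other kept barcodes (y axis, log scale; 1 is the reference level) in the first, middle and last 50 members by rank and in eligible barcodes beyond them (x axis), nuclei left and cells right. The 15 other Cajal-Retzius genes start at 3.86 in nuclei and 3.40 in cells. The projection neuron, radial glia, dividing cell and choroid plexus lists start below 1 and are higher in the last 50, not always in even steps. Choroid plexus genes reach 1.68 in the last 50 cells.

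Genes outside the rule with the largest ratios were named, the 15 highest in each library among genes detected in at least 25% of the members. Of the 15 named in nuclei, 13 were at least 2-fold higher in cells too, and all 15 named in cells were at least 2-fold higher in nuclei. Both libraries named 7 of them, SVEP1, LHX1-DT, THSD7B, the long noncoding RNA ENSG00000226965, EBF1, FSTL4 and KCNC2. Over the 13084 genes that passed the filter in both libraries, 94 were at least 2-fold higher in both, which is 20.2% of the 465 in nuclei and 79.0% of the 119 in cells, beside 0.910% and 3.55% of all genes. Spearman's rho of the ratios across 13066 of these genes was 0.32, a description over genes that are not independent and that shares each library's base of depth.

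SVEP1, an extracellular matrix and adhesion protein, had the highest ratio in nuclei. It stood at 1.52 counts per 10000 in members against 0.0263, a ratio of 57.7 (46.4 to 71.7), and at 0.813 against 0.0550 in cells, a ratio of 14.8 (13.0 to 16.8). It was detected in 34.0% of member nuclei and 1.18% of reference nuclei, and in 41.3% and 8.10% of cells. In nuclei SVEP1 passed the filter at 5.55 predicted counts. That prediction includes the 167 counts of the members themselves, beside 176 in the reference. From the reference level alone SVEP1 would not have passed in nuclei, so its place there rests on the members. LHX1-DT, the divergent transcript that starts head to head with LHX1 at a distance of 114 bases, had ratios of 28.2 (24.7 to 32.1) in nuclei and 17.3 (14.9 to 20.1) in cells. Since the strand of counting is not given in the sources used here, its reads and those of LHX1 may not be separable near their starts.

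THSD7B, a thrombospondin domain gene, had ratios of 20.9 (18.6 to 23.4) in nuclei and 5.65 (5.14 to 6.20) in cells. ENSG00000226965 had 20.2 (18.2 to 22.4) and 6.65 (6.19 to 7.15). KCNC2, which encodes a voltage-gated potassium channel of fast-firing neurons, was at 2.38 counts per 10000 in member nuclei against 0.325 and at 0.930 against 0.177 in cells, with ratios of 7.34 and 5.27. HS3ST5, a heparan sulfate sulfotransferase, had 17.3 in nuclei and 3.59 in cells, and CPNE4, a copine that binds membranes with calcium, 8.38 and 3.24. Of the genes named in nuclei, TMEFF2 and LRMDA did not reach 2-fold in cells, at ratios of 1.38 (1.20 to 1.59) and 1.98 (1.74 to 2.25).

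RSPO3, a secreted amplifier of WNT signalling made in the cortical hem, was at 1.16 counts per 10000 in member nuclei against 0.259, and at 0.850 against 0.169 in cells, ratios of 4.50 (3.73 to 5.39) and 5.03 (4.51 to 5.59). It was the one gene of the 10 on the cortical hem list at least 2-fold higher in either library, beside 3.59% of all genes in nuclei and 2.18% in cells. In cortical hem-like barcodes, whose choice used RSPO3, its level was higher than in the members, at 5.58 in nuclei and 3.42 in cells. MGAT4C, a glycosyltransferase, had ratios of 4.79 in cells and 5.42 in nuclei, and FNDC5, the precursor of the peptide irisin, 4.14 and 5.32.

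These ratios depended on how the members of the cells were drawn. With at least 4 of the 7 markers required, the set was 128 cells, which is no subset of the members: the 89 members with 3 markers were left out, and eligible cells from beyond rank 150 came in. In that set EBF1 was at a ratio of 1.38, RSPO3 at 1.91, SLC17A6 at 1.59 and THSD7B at 1.85, while SVEP1 was at 5.38, LHX1-DT at 6.39 and KCNC2 at 2.64. Under that choice 0 of the 15 other Cajal-Retzius genes were at least 2-fold higher in cells, and under a choice of the 300 highest scores 3 were. With the level averaged over barcodes instead of pooled, EBF1 was at 6.44, SVEP1 at 20.6 and LHX1-DT at 21.1 in cells, and without barcodes above the 95th percentile of depth at 5.19, 18.8 and 20.3. In nuclei the lowest ratios over all alternatives were 18.1 for SVEP1, 11.5 for LHX1-DT and 1.97 for KCNC2, each with more than 5000 transcripts required, 2.53 for EBF1 and 2.03 for SLC17A6 with 4 of 7 markers, and 5.39 for THSD7B without sub-library 2.

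**Figure D3:**
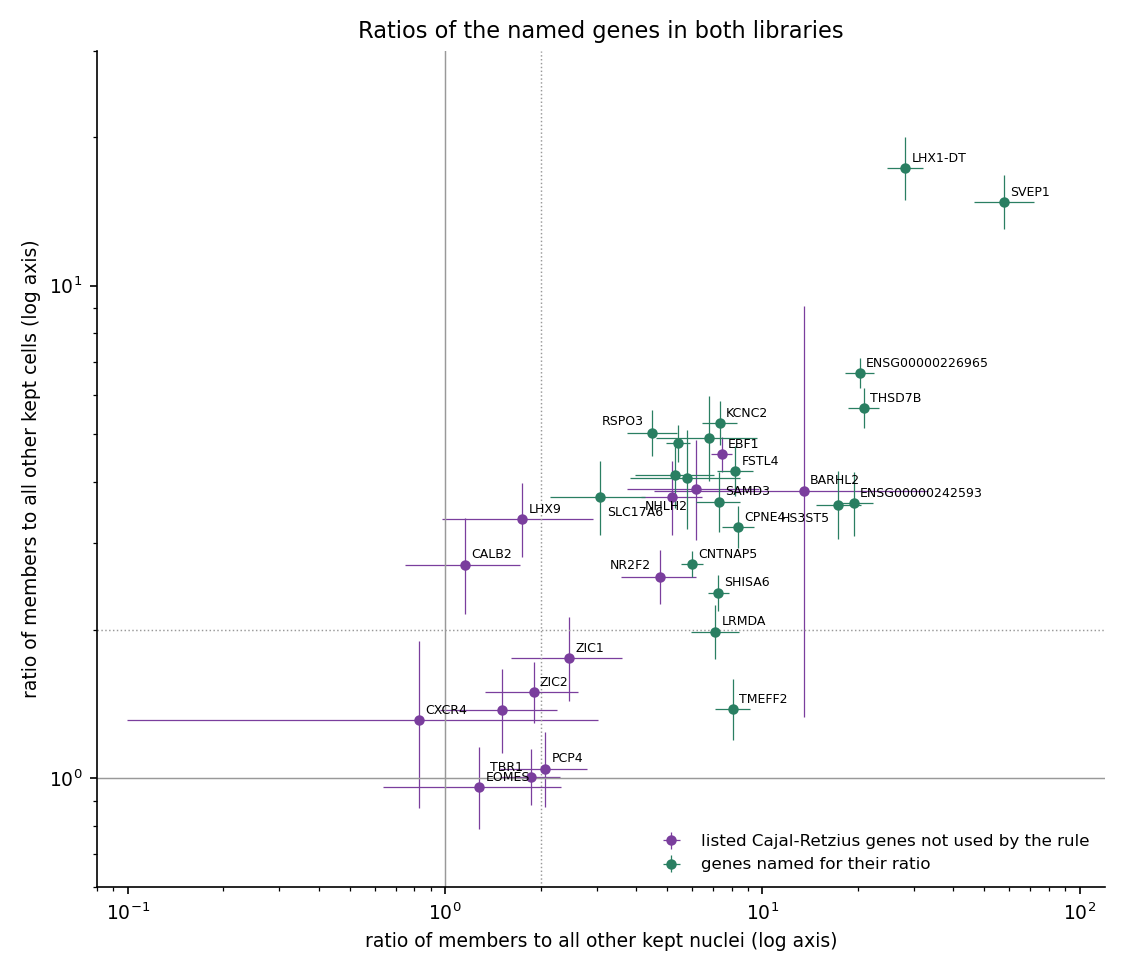
Ratio of the level in members to that in all other kept barcodes, nuclei on the x axis and cells on the y axis, both log scales, with exact 95% intervals as bars. SVEP1 and LHX1-DT lie farthest out in both, most named genes (green) lie above the dotted lines at 2-fold, and TBR1, EOMES and PCP4 of the listed genes (purple) lie near 1 in cells. A few crowded points carry no label.

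Of the 11 genes of the reelin pathway, which receive and pass on the signal, 1 was at least 2-fold higher in nuclei and 0 in cells, beside 3.59% and 2.18% of all genes. That gene was CDK5R1, the p35 activator of the kinase CDK5, at 2.19 (1.5 to 3.10) in nuclei and 0.951 (0.807 to 1.11) in cells. The receptors VLDLR and LRP8 were at 1.31 (0.808 to 2.02) and 0.797 (0.683 to 0.925) in nuclei, and at 0.754 (0.582 to 0.962) and 0.912 (0.847 to 0.981) in cells. DAB1, the adaptor in responding neurons, was at 0.746 (0.704 to 0.791) and 0.836 (0.807 to 0.866). None of the receptors or the adaptor passed 2-fold in either library.

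Of 12 pan-neuronal genes 5 were at least 2-fold higher in nuclei, beside 3.59% of all genes, among them INA, STMN2, SNAP25 and MAPT, with ratios between 2.13 and 2.63. The others included TUBB3 at 0.914 (0.436 to 1.69), SYT1 at 1.04 (0.976 to 1.10) and ELAVL4 at 1.13 (0.975 to 1.30). In cells none of the 12 reached 2-fold, and the highest, INA, a neuronal intermediate filament, was at 1.67 (1.46 to 1.91). After each barcode was thinned to the same depth, DCX or STMN2, genes of young neurons, was detected in 69.3% (61.3 to 76.6) of member nuclei against 40.0% of the reference and in 89.3% (83.3 to 93.8) of member cells against 71.1%.

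For guidance and migration, 4 of 12 genes were at least 2-fold higher in nuclei and 1 in cells, beside 3.59% and 2.18% of all genes. UNC5C, a netrin receptor that mediates repulsion, was the one shared, at 4.18 (3.72 to 4.67) in nuclei and 2.35 (2.13 to 2.58) in cells. DCC, the attractive netrin receptor, was at 2.63 (2.56 to 2.70) and 1.72 (1.68 to 1.75), UNC5D at 2.58 and 1.13, and NRP1, a semaphorin receptor, at 2.92 and 1.49. The chemokine CXCL12 and its scavenging receptor ACKR3 stood at 1.38 (0.372 to 3.60) and 1.18 (0.506 to 2.35) in nuclei, from 4 and 8 counts.

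Chloride transporters differed between the libraries. SLC12A5, the exporter KCC2 of mature neurons, was at 2.58 (1.54 to 4.07) in nuclei from 19 counts and 0.975 (0.648 to 1.41) in cells, and SLC12A2, the importer NKCC1, at 0.637 (0.484 to 0.823) and 1.02 (0.926 to 1.12). Of 10 genes of the p53 family and cell death, 1 was at least 2-fold lower in nuclei, CDKN1A at 0.475 (0.154 to 1.11) from 5 counts, beside 8.39% of all genes, and none passed 2-fold in cells. Of 8 stress genes, FOS and DDIT3 were at least 2-fold lower in nuclei, each from 4 counts and again beside 8.39%, and none passed 2-fold in cells, where 1.75% of all genes were at least 2-fold lower.

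Lists of other classes were read against the 8.39% (1098) of all genes that were at least 2-fold lower in member nuclei and the 1.75% (383) in member cells. The 8 genes of the inhibitory neuron list summed to 1.02 counts per 10000 in member nuclei against 1.21 in the reference, with 4 of them at 0 counts in the members, and to 1.07 against 0.985 in cells. Of its 3 genes that passed the filter in nuclei, GAD1 and GAD2 were at least 2-fold higher, beside 3.59% of all genes. The other 1 was at least 2-fold lower. In nuclei 5 of 8 projection neuron genes, 6 of 9 radial glia genes, 4 of 8 genes of dividing cells and 4 of 8 choroid plexus genes were at least 2-fold lower. SLC1A3, the glial glutamate transporter, was at 0.322 (0.247 to 0.413), GLI3, a Hedgehog pathway factor of progenitors, at 0.370 (0.338 to 0.404) and MKI67, a marker of dividing cells, at 0.356 (0.272 to 0.457). NEUROD6, of projection neurons, was at 0.387 (0.221 to 0.629), SOX5 at 0.392 (0.371 to 0.415) and SLA at 0.300 (0.150 to 0.538).

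In cells SLA, at 0.333 (0.280 to 0.392), was the one gene of these 4 lists past 2-fold. The summed level of the choroid plexus list was 23.5 counts per 10000 in member cells and 21.9 in the reference, against 6.98 and 27.7 in nuclei. That of the radial glia list was 14.2 and 17.0 in cells, against 7.0 and 17.6 in nuclei. TTR, which choroid plexus secretes, was detected in 72.0% of thinned member cells and 50% of the thinned reference, and in 2.67% and 5.52% of nuclei. The part of free RNA in these shares was not tested.

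The telencephalic genes EMX1, EMX2, LHX2 and DMRTA2 had ratios between 0.513 and 0.906 in nuclei and between 0.932 and 1.21 in cells. Of 20 genes of the diencephalon, midbrain and hindbrain, 12 had 0 counts in member nuclei and 2 in member cells. The list had 2 genes past the filter in nuclei, of which TCF7L2 was at least 2-fold lower at 0.408, and 6 in cells, of which LMX1B was at least 2-fold higher. Counted over all 20, 5 were at least 2-fold higher in nuclei and 8 in cells, beside 3.59% and 2.18% of the genes that passed, mostly from few counts, and 2 were at least 2-fold lower in nuclei, beside 8.39%, and 0 in cells. PAX2, which did not pass in nuclei, held 21 counts there in 2% of the members, a ratio of 6.41 (3.88 to 10.1), and 11 in member cells, 1.13 (0.555 to 2.05). LMX1B, a LIM-homeodomain factor, was at 3.51 (2.80 to 4.35) in cells and 1.64 (0.742 to 3.15) in nuclei.

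Inhibitory neurons of the mature cortex also make reelin, so GAD1 and GAD2, the enzymes of GABA synthesis, were examined in the members. After thinning, either gene was detected in 7.33% of member nuclei (3.72 to 12.7) and 2.67% of the reference, but also in 6.0% of choroid plexus-like nuclei (2.78 to 11.1), which should lack it. In cells the shares were 8.67% (4.70 to 14.4), 5.22% and 6.0%. Before thinning the choroid plexus-like sets had median depths of 9517.5 transcripts in nuclei and 14929 in cells. The intervals of members and choroid plexus-like barcodes overlapped in both libraries. Projection neuron-like barcodes, which should also lack both genes, were at 0% (0 to 2.43) in nuclei, without overlap with the members, and at 2.00% (0.414 to 5.73) in cells, with overlap. The choroid plexus-like and projection neuron-like sets thus differed from each other in nuclei, while their intervals overlapped in cells. Cortical hem-like barcodes were at 6.0% (2.78 to 11.1) in nuclei and 8.0% (4.20 to 13.6) in cells, with overlap with the members. The part of free RNA in the share of the members was not tested. Pooled over the members, GAD1 was at a ratio of 2.40 (1.76 to 3.20) and GAD2 at 3.15 (1.85 to 5.06) to the reference in nuclei, and at 1.21 (0.916 to 1.57) and 1.56 (1.0 to 2.34) in cells. Unthinned shares were 12.7% of member nuclei and 16.7% of choroid plexus-like nuclei, and 23.3% and 19.3% of cells. In the first, middle and last 50 members the thinned share was 2.00%, 12% and 8.0% in nuclei, from 1, 6 and 4 barcodes. In cells it was 4.00%, 10% and 12%, from 2, 5 and 6 barcodes. The share was lowest in the members of highest score, but the intervals of this share overlapped between the 3 groups in both libraries. Pooled levels did not all overlap. GAD1 in the 3 groups of nuclei was at 0.109 (0.0224 to 0.317), 1.00 (0.677 to 1.43) and 0.286 (0.160 to 0.471) counts per 10000. In cells it was at 0.0105 (0.000265 to 0.0583), 0.122 (0.0735 to 0.191) and 0.165 (0.117 to 0.225). GAD2 was at 0 (0 to 0.134), 0.435 (0.232 to 0.744) and 0.0953 (0.0309 to 0.222) in nuclei, with overlap in cells. DLX1, DLX2, DLX5 and DLX6, factors of forebrain inhibitory neurons, had 0 counts in the 150 member nuclei, which leaves an exact upper bound of 2.43% on the share of nuclei with a count of any of them, while the reference nuclei were at 0.303% unthinned. The member cells held 4 counts in all, in 2.67% of the cells against 1.43% of the reference, or 1.33% (0.162 to 4.73) against 0.513% after thinning.

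**Figure D4:**
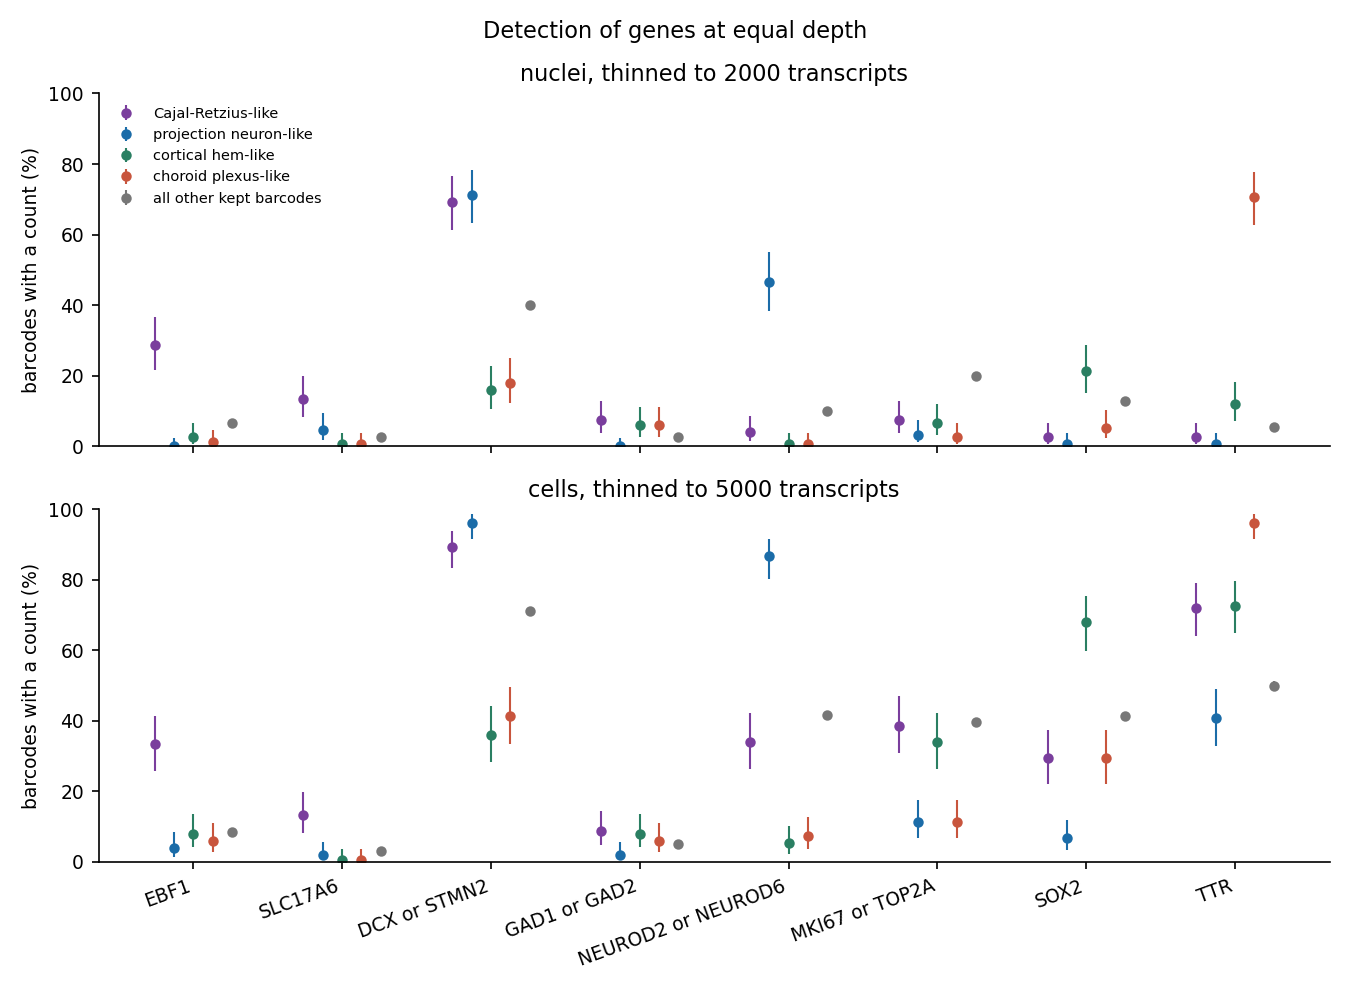
Percentage of barcodes with at least 1 count of a gene or gene pair (y axis) after thinning to 2000 transcripts in nuclei (top) and 5000 in cells (bottom), in 4 marker-chosen sets of 150 and all other kept barcodes, with exact 95% intervals. EBF1 and SLC17A6 are highest in the Cajal-Retzius-like set in both libraries, and TTR is frequent in every set of the cells. The interval of the members' share with GAD1 or GAD2 overlaps that of choroid plexus-like barcodes. In nuclei it lies above those of projection neuron-like and all other kept nuclei, while in cells it overlaps both.

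Compared with 150 projection neuron-like barcodes, 19.8% of 12597 genes were at least 2-fold higher in member nuclei and 6.1% at least 2-fold lower. In cells these shares were 23.5% and 4.74%. EBF1, with 737 counts in member nuclei, had 0 in the projection neuron-like nuclei and was at least 217-fold higher against a floor of 3 counts over the set, which leaves out the counting error of the members. The exact interval, which covers the error of both sets, had its lower limit at 176. By the floor LHX1-DT was at least 100-fold, SVEP1 at least 49.3-fold and NRP1 at least 33.9-fold higher, with exact lower limits of 81.1, 39.6 and 27.2. LHX5-AS1, the antisense transcript of LHX5, was at least 17.4-fold higher, with an exact lower limit of 13.7. LHX1 and LHX5 are rule markers. With the strand of counting not given, their reads may not be separable from those of LHX1-DT and LHX5-AS1. On the other side, KCNQ5, a potassium channel gene, was at 0.409 counts per 10000 in member nuclei against 14.0, and SLC24A2, a sodium-calcium-potassium exchanger, at 0.618 against 15.4. LMO3 was at 0.182 against 4.95. The same 3 genes were among the lowest in cells, with KCNQ5 at 1.46 against 12.5, SLC24A2 at 0.908 against 11.8 and LMO3 at 0.283 against 3.15. In cells RSPO3 at 0.850 against 0.0198, from 4 counts, and OTX2, a homeobox gene of choroid plexus and dorsal midline, at 0.410 against 0.00992, from 2 counts, were among the genes with the largest ratios.

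At equal depth the 2 neuronal sets had like shares of DCX or STMN2 in nuclei, 69.3% of members and 71.3% (63.4 to 78.4) of projection neuron-like nuclei. NEUROD2 or NEUROD6 was detected in 4.00% (1.48 to 8.50) of member nuclei and 46.7% (38.5 to 55.0) of projection neuron-like nuclei, but these genes chose the latter. In cells DCX or STMN2 was in 89.3% (83.3 to 93.8) of members and 96% (91.5 to 98.5) of projection neuron-like cells. NEUROD2 or NEUROD6 was in 34% (26.5 to 42.2) of member cells, against 41.6% of the reference and 86.7% of projection neuron-like cells. EBF1, which chose neither, was detected in 28.7% (21.6 to 36.6) and 0% (0 to 2.43), and SLC17A6 in 13.3% (8.34 to 19.8) and 4.67% (1.90 to 9.38). In cells EBF1 was detected in 33.3% (25.9 to 41.5) of members and 4.00% (1.48 to 8.50) of projection neuron-like cells, and SLC17A6 in 13.3% and 2.00%.

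Inhibitory neuron-like barcodes were few, 12 nuclei and 19 cells, and the cells among them were very deep, with a median of 99698 transcripts. Of 21 eligible cells, 2 were members of the Cajal-Retzius-like set and were left out, against 0 of 12 eligible nuclei. RELN in the barcodes that remained was at 0.564 counts per 10000 in nuclei (0.258 to 1.07) and 0.235 in cells, near the reference. In cells that level was read after members chosen partly by RELN had been removed. Some genes of the members were also present there: EBF3 was at 3.01 (2.22 to 3.98) and LHX1-DT at 1.13 (0.668 to 1.78) in those nuclei. A single nucleus of 117272 transcripts made up most of the 159707 in that set, so these levels lean on it. That nucleus itself met the Cajal-Retzius rule, at rank 170, and so the levels say little about inhibitory neurons. Against them 20.8% of 13161 genes were at least 2-fold higher in member nuclei and 12.1% lower, and 7.79% and 3.93% of 22569 genes in cells. DLX6-AS1, a noncoding RNA of the DLX5 and DLX6 locus, was at 0 in member nuclei against 4.88, and at 0.0143 in member cells against 0.563.

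TP73, the marker of hem-derived Cajal-Retzius neurons, was detected in 54 of the 150 nuclei and 66 of the 150 cells, and the members with and without it were set side by side after the first values were seen. TP73 helped choose the members and members without it needed other markers, so EBF2 and the rule's other genes are bound to differ. RELN, which made up most of the score, was at 67.3 counts per 10000 in nuclei with TP73 and 15.6 in those without, and at 13.9 and 4.13 in cells, so the division also parts members of high and low score. For genes outside the rule, SVEP1 was detected in 61.1% of nuclei with TP73 (46.9 to 74.1) and 18.8% of those without (11.5 to 28.0). In cells it was detected in 69.7% (57.1 to 80.4) and 19.0% (11.3 to 29.1). TP73 and score cannot be told apart in these values. Median depths were 4635.5 and 5354.5 transcripts in nuclei, and 15895 and 16432.5 in cells, so the members with TP73 were not deeper.

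KCNC2 followed the same pattern, at 79.6% and 28.1% of nuclei and 62.1% and 32.1% of cells. LHX1-DT, which starts next to the rule marker LHX1, was at 83.3% (70.7 to 92.1) and 38.5% (28.8 to 49.0) of nuclei. In cells it was at 50% and 29.8%, where the intervals overlapped. EBF1, whose relatives EBF2 and EBF3 are rule markers, ran the other way in nuclei, at 16.7% (7.92 to 29.3) with TP73 and 58.3% (47.8 to 68.3) without. Its level was 3.49 (2.93 to 4.13) and 8.48 (7.81 to 9.19) counts per 10000 there, and 0.523 (0.429 to 0.631) and 2.04 (1.87 to 2.21) in cells, while its shares of 48.5% and 60.7% in cells had overlapping intervals. GAD2 had 0 counts in the 54 nuclei with TP73 and 18 in the 96 without, and GAD1 had 4 and 44. In cells GAD2 had 14 counts in the 66 with TP73 and 11 in the 84 without, detected in 13.6% (6.43 to 24.3) and 7.14% (2.67 to 14.9), and GAD1 had 21 and 38. SLC17A6 differed little, at 24.1% and 32.3% of nuclei and 30.3% and 29.8% of cells, with overlapping intervals.

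The score includes TP73 and RELN, so the order by score is tied to the division by TP73 and adds no support to it. EBF1 was detected in 10, 22 and 33 of the first, middle and last 50 nuclei, whereas SVEP1 was detected in 32, 11 and 8, CPNE4 in 39, 14 and 16 and KCNC2 in 38, 19 and 13. In cells EBF1 was detected in 25, 27 and 31 and SVEP1 in 31, 15 and 16 of the same groups. RELN per 10000 was 107, 19.3 and 4.00 in these groups of nuclei and 32.7, 3.25 and 1.68 in cells.

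**Figure D5:**
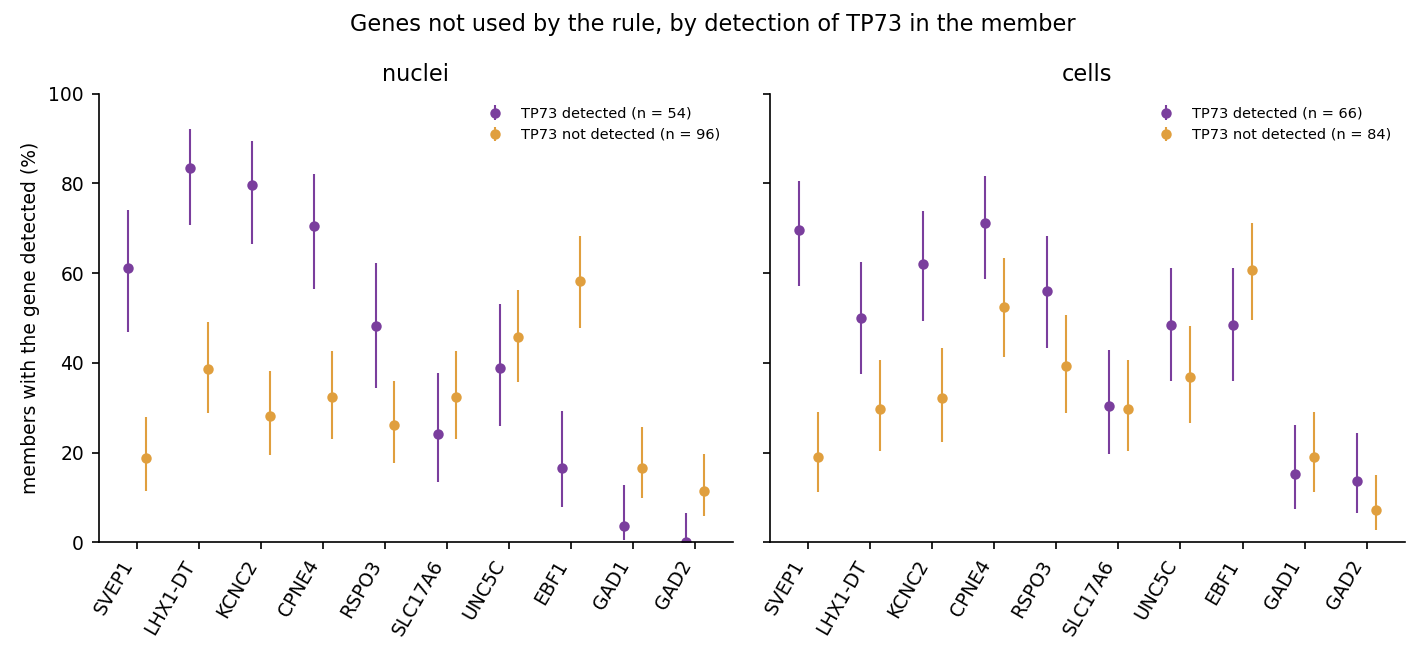
Percentage of members with a gene detected (y axis) for 10 genes outside the rule, in members with TP73 detected (purple) and not detected (orange), nuclei left and cells right, with exact 95% intervals. SVEP1 and KCNC2 are more frequent with TP73 in both libraries, EBF1 is more frequent without it in nuclei (58.3% against 16.7%), and SLC17A6 is at like shares.

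The first-round wells of the members have conditions that are not known here. In nuclei all 12 wells held members, from 0.731% to 3.16% of their kept nuclei with a median of 1.53%. In cells 31 of 48 wells held members, and among the 24 wells with at least 100 kept cells the share ran from 0% to 7.14% with a median of 1.76%. The highest of these shares was 27 of 378 cells (95% interval 4.76 to 10.2). The 4 wells with most members held 73 of the 150 cells (48.7%), among them 29 of the first 50, and 25.4% of the kept cells. In nuclei the 4 such wells held 50.7% of the members and 51.7% of the kept nuclei. Wells may hold different organoids, conditions or days, which cannot be told apart here.

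Between sub-libraries, which are technical portions of 1 library, the nuclei members divided into 72 and 78, and the cells into between 5 and 29 in each of 8. RELN in members was 34.1 ± 2.26 counts per 10000 (SD, n = 2 sub-libraries) in nuclei and 7.17 ± 4.00 (SD, n = 8) in cells, against 0.422 ± 0.0966 and 0.249 ± 0.0667 in the reference. RSPO3 was 1.14 ± 0.593 and 0.785 ± 0.373 in members against 0.259 ± 0.00911 and 0.167 ± 0.0434. SVEP1 was 1.52 ± 0.0925 and 0.752 ± 0.260 against 0.0265 ± 0.00236 and 0.0549 ± 0.0145. SVEP1 and RSPO3 were higher in the members of every sub-library, as was RELN, for which the rule fixed it. SVEP1 in both libraries and RSPO3 in cells were named for their pooled ratio over these same barcodes. Their direction in the sub-libraries therefore adds no support. The rule markers TP73 and LHX1 were higher in the members of 7 of the 8 cell sub-libraries, and their lowest level there was 0. The share of all genes higher in every sub-library was not computed.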

How the data were processed

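The deposited counts are transcripts per barcode and gene, unfiltered and not normalized, which the authors made from split-seq reads of 8 cell and 2 nuclei sub-libraries with the pipeline of Parse Biosciences (genome build GRCh38). The strand of counting is not given in the sources used here. Barcodes were kept, scored and ranked as the text describes. The members and gene lists were chosen with earlier results of these data known. Counts of a set were pooled and scaled per 10000. Genes entered where at least 5 counts were predicted in the members from the level of all kept barcodes, the members included. A gene was called at a ratio of 2 or more, or at its inverse or less. The 95% intervals reflect counting error alone and are exact: conditional binomial for ratios, Poisson for levels and Clopper-Pearson for shares. Where a set held no count, the bound used a floor of 3 counts over the set. Shares between sets were computed after thinning without replacement to 2000 (nuclei) or 5000 (cells) transcripts, seed 0.

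Comparison sets (projection neuron-like, inhibitory neuron-like, cortical hem-like and choroid plexus-like) were the up to 150 highest shares of 7 markers each, at least 3 detected, outside the members and the sets before them, and the inhibitory neuron-like sets held 12 nuclei and 19 cells. Named genes were the rule markers, the genes of the lists, the 15 largest ratios per library and the 8 largest and smallest against the neuronal sets, among genes detected in at least 25% of one side. The 3 groups by rank, the division by TP73, the list without EBF1, the genes followed in them and the choice of the 50 highest scores were added after seeing the data. With 1 sample per library no test was run, and sub-library SD values measure technical spread. The steps were tested on simulated data. Alternatives were other numbers of members, other marker, depth and mitochondrial limits, other filters, levels averaged over barcodes and leaving out sub-libraries or the fullest well. Computations ran in Python 3.11.15 with pandas 2.3.3, scipy 1.17.1, numpy 2.4.6 and, for plots, matplotlib 3.10.9. Some genes of the lists are not reported here.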

Additional observations from a re-analysis of the deposited data

Results flagged for a closer look

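RELN was present in barcodes of 10 to 100 transcripts, which were outside all comparisons, at 0.961 counts per 10000 in nuclei and 0.686 in cells. Both values lie above the level in the kept barcodes outside the members, 0.414 and 0.252, and below that in the members, 34.0 and 8.25. The part of free RNA in the single RELN counts of low-ranked members was not tested.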

How the results depend on the processing

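Of the main counts and shares, 141 values under alternatives were labelled the same as the reported one and 29 moved. The label was loose: it covered 321 genes higher in member nuclei without 1 sub-library, against 470. It also covered 12.7% of member nuclei with GAD1 or GAD2 unthinned, against 7.33% after thinning. Genes at least 2-fold higher in member nuclei (470) numbered 278 with at least 4 of 7 markers, 711 with levels averaged over barcodes, and 823 and 215 with at least 2 and 20 predicted counts; without 1 sub-library they numbered 250 to 321, from fewer members. Genes at least 2-fold lower there (1098) numbered 472 with all 192 eligible nuclei, 476 with 4 of 7 markers, 521 above 5000 transcripts, 1841 averaged, 1969 and 433 by predicted counts, 582 without the fullest well and 414 to 599 without 1 sub-library. In cells, genes higher (477) numbered 1051 with the 300 highest scores, 1394 without the deepest 5% of barcodes, 1497 averaged, 1133 and 139 by predicted counts, and 417 to 612 without 1 sub-library. Genes lower (383) numbered 673 with 75 and 1027 with the 50 highest scores, 940 averaged, and 1220 and 36 by predicted counts, and 296 to 370 without 1 sub-library. Of the 15 other Cajal-Retzius genes, 0 were 2-fold higher in cells with 4 of 7 markers and 3 with the 300 highest scores, and 6 to 7 without 1 sub-library; in nuclei 5 to 10 were under every alternative. GAD1 or GAD2 was detected in 2.00% of the 50 highest nuclei and 4.00% of the 50 highest cells, in 23.3% of cells unthinned, and in 6.67% to 10.8% of nuclei and 8.67% to 10.0% of cells without 1 sub-library. The fullest well held 16.7% to 18.9% of nuclei and 14.7% to 18% of cells without 1 sub-library. The log2 ratio turned to -0.44 for ZIC1 in nuclei at the 75 highest scores and, for PCP4, to -0.30 above 5000 transcripts and -0.19 without sub-library 2, with 0.66 without sub-library 1. Causes were not tested.

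Outside the rule, the alternatives followed the 15 other Cajal-Retzius genes and, in each library, the 15 genes named there for their ratio. Of those at 2-fold or more, 16 of 21 in nuclei and 5 of 19 in cells stayed there under every alternative run. Other named genes were not followed. The median log2 ratio of all genes in nuclei was -0.16 at the 75 and -0.21 at the 50 highest scores. No paired analysis was possible because each library is 1 sample with no barcode assigned to a condition. Genes such as LHX5, LHX1 and BARHL2 rest on few counts.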
